A study of Chrysemys picta and Apalone spinifera with 20 samples.

Results

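The libraries described here are those of the painted turtle Chrysemys picta (hereafter Chrysemys) taken from gonads at stages 19 and 22 and from adrenal-kidney-gonad complexes (AKG complexes) at stages 12 and 15. They were chosen by their tissue labels, and they number 8 of the 20 libraries in the series, 4 gonad libraries and 4 AKG libraries. Each tissue was sampled at 26 °C, the male-producing temperature (MPT), and at 31 °C, the female-producing temperature (FPT), once at each of its 2 stages. Eggs came from a turtle farm and were kept at a constant temperature, and no agent or genetic change was applied to any group. A library held the RNA of 10 pooled embryos, so the spread between individual embryos was not measured. The AKG complexes came from embryos before and at the start of the thermosensitive period, when the gonad is not yet seen or is hard to part from its surroundings, and the gonads came from the middle and the end of that period. Complexes were therefore always the younger tissue, and tissue and stage cannot be told apart in any value below. The 4 libraries of a tissue served as its replicates, which span 2 stages and 2 temperatures, so p-values measure the spread between these pools only.

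In turtles, as in other amniotes, the gonad forms as a ridge on the inner face of the embryonic kidney, the mesonephros, with the adrenal gland beside it. Supporting cells of the ridge turn into Sertoli cells in a testis or granulosa cells in an ovary, interstitial cells make steroids, and germ cells move in from outside. The mesonephros is a working kidney in the embryo, with glomeruli that filter blood and tubules that take back salts, sugars and proteins. In a species with temperature-dependent sex determination the gonad takes its fate from the warmth of the egg during the thermosensitive period.

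Total counts of the 8 libraries ran from 11610098 to 24606646, and 13193 to 13609 of the 13940 genes in the table had at least 1 count in a library. Levels below are library-size-scaled counts (CPM), adjusted by the trimmed mean of M-values (TMM) over the 10 Chrysemys libraries. They are not divided by gene length, so levels are compared between libraries and not between genes. For complexes the order of values is always 26 °C stage 12, 31 °C stage 12, 26 °C stage 15 and 31 °C stage 15, and for gonads 26 °C stage 19, 31 °C stage 19, 26 °C stage 22 and 31 °C stage 22. Differences are log2 values, gonad minus complex, with their standard errors, from edgeR's quasi-likelihood test with temperature as a block. Adjusted p-values are Benjamini-Hochberg values over all genes tested, and 0.05 was the limit below which a gene counted as called. By median correlation, complexes resembled each other, and gonads each other, more than complexes resembled gonads. The lowest pair of gonads (0.909) fell below the highest pair of a complex and a gonad (0.914). Pearson correlations of log2(CPM + 1) across the genes tested were 0.956 to 0.985 among complexes, 0.909 to 0.959 among gonads and 0.863 to 0.914 between the tissues. The 2 trunk libraries of stage 9, which are used here only as a reference, correlated with the stage 12 complexes at 0.924 to 0.981, with the stage 15 complexes at 0.873 to 0.936 and with the gonads at 0.851 to 0.895.

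The sex genes AMH and DMRT1, most tested genes of kidney tubules, basement membranes and macrophages, and smooth muscle myosin were higher in the gonads. Sex genes as a set were mixed. Of 17 testis and Sertoli cell genes 7 were higher and 2 lower, and of 13 ovary and granulosa cell genes 2 were higher and 5 lower. Part of the genes of neurons and glia (5 of 13, with 1 higher), of cartilage (4 of 7) and of cell division (15 of 27) were lower in the gonads. In the 31 °C libraries alone edgeR called 0 cell division genes lower. Of 12140 genes that passed the filter on low counts, 2105 (17.3%) were higher in the gonads and 2006 (16.5%) were lower. These shares of all genes are the ones to set beside the list counts above and below. The 4 gonad libraries lay wholly above the 4 complexes for 2088 genes and wholly below them for 2067 genes, together 34.2% of the genes tested, and 3488 genes were both called and without overlap. Calls of more than 2-fold numbered 1576 in the higher and 1029 in the lower direction, and calls of more than 8-fold numbered 96 and 134. The median difference over all genes tested was 0.02, and it moved to 0.15 when library totals replaced the TMM factors, which gave 2238 higher and 1410 lower genes (61.3% higher, against 51.2% here). In bulk RNA such as this, fewer cells of a type and less RNA per cell cannot be told apart. The number of calls, 4111 in all, fell to 2464 when the 26 °C stage 12 complex was left out and to 864 in the 31 °C libraries alone. With the stage 15 complexes alone as the younger tissue, an alternative chosen after seeing the data, it was 1939, and 1844 of these were calls of the full comparison.

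**Figure D1:**
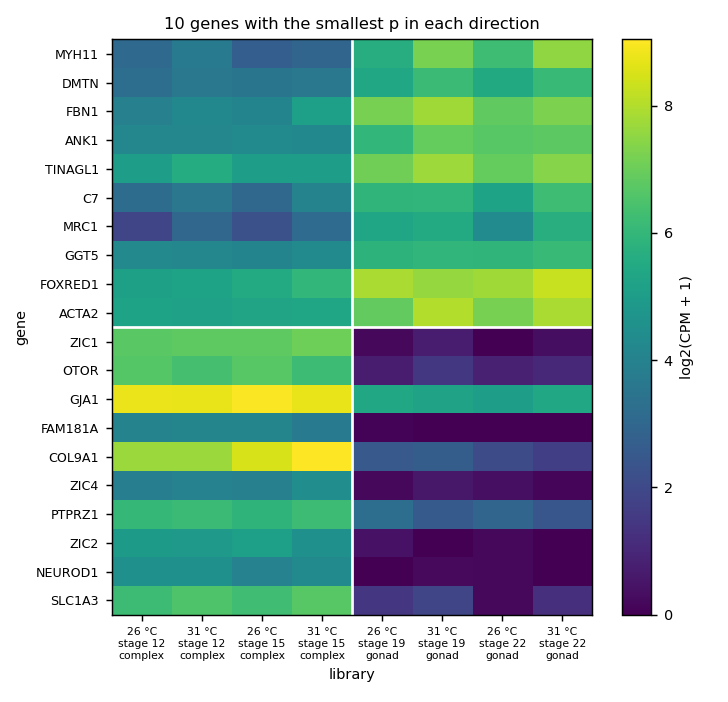
Levels, as log2(CPM + 1), of the 10 genes with a symbol and the smallest p in each direction (rows) in the 8 libraries (columns, 4 complexes left of the white line and 4 gonads right of it). Rows above the horizontal line were higher in the gonads, led by MYH11, and rows below it were lower, led by ZIC1.

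The labels were checked against genes that mark each organ. The genes that fell most in the gonads were genes of the neural tube and of cartilage, organs that neither label names. ZIC1, a zinc finger regulator of the dorsal neural tube, stood at 104, 111, 111 and 131 CPM in the complexes and at 0.144, 0.641, 0 and 0.256 CPM in the gonads. The trunks held 39.9 and 57.4 CPM of it, so every complex held more than either trunk. The tissue difference -8.91 ± 0.48 SE, adjusted p = 5.3e-06. NKX6-1, a regulator of motor neuron precursors, had 5.15, 7.49, 3.76 and 5.78 CPM in the complexes and not 1 count in any gonad. Against a floor of 3 counts per gonad library, it was at least 28.9-fold lower in the gonads. PAX6, a regulator of neural tube and eye, had 9.75, 12.7, 7.51 and 5.62 CPM in the complexes, while the gonads had 0.144, 0, 0 and 0 CPM. ZIC2 and ZIC4, relatives of ZIC1, and SOX1, a marker of neural precursors, showed the same picture, with at most 0.481 CPM in any gonad. The same held for NEUROD1, which drives neurons to differentiate, for GLRA2, a glycine receptor subunit of neurons, and for FAM181A. Against the trunks these genes were not alike. ZIC4, NEUROD1 and GLRA2, like ZIC1, were higher in every complex than in either trunk. SOX1 was lower in every complex, with 3.95 to 7.15 CPM there and 9.37 and 12.2 CPM in the trunks. For NKX6-1, PAX6, ZIC2 and FAM181A the ranges of trunks and complexes overlapped. ALKAL1, a ligand of the receptor kinases ALK and LTK, was low at stage 12, with 0.813, 0.681, 7.51 and 12.2 CPM in the complexes and 0, 0, 0 and 0.256 CPM in the gonads. SLC1A3, the glutamate carrier of radial glia (-5.88), PTPRZ1, a phosphatase receptor of glia (-3.48), and GJA1, a gap junction protein (-3.61), were among the lower genes with the smallest p.

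Cartilage genes fell in the same way. COL9A1, a collagen of cartilage, had 205, 205, 356 and 525 CPM in the complexes and 4.74, 5.29, 3.18 and 2.18 CPM in the gonads (difference -6.40 ± 0.46 SE, adjusted p = 3.7e-05). OTOR, a secreted protein of cartilage and the inner ear, had a difference of -6.48 and SNORC, a cartilage proteoglycan, one of -5.27. Of 7 cartilage genes tested 4 were lower in the gonads and none higher, with a median of -2.32. The members not called, COL11A1, ACAN and MATN4, had high values in the 26 °C stage 22 gonad. ACAN, the main cartilage proteoglycan, had 11.6, 2.24, 69.7 and 1.54 CPM in the gonads, and MATN4, a matrilin of the matrix, had 140.4, 19.2, 361 and 7.81 CPM against 97.3, 90.9, 344 and 673 CPM in the complexes. Summed over the list, cartilage genes stood at 1105 to 3695 CPM in the complexes, 152.3 to 1145 CPM in the gonads and 1224 to 1377 CPM in the trunks. Genes of neurons and glia gave 873.3 to 1375 CPM in the complexes, 106.8 to 623.4 CPM in the gonads and 238.6 to 376.1 CPM in the trunks. Among 13 of these genes 5 were lower in the gonads and 1 was higher, and the lower ones were led by GAD1, which makes the transmitter GABA (-4.14), SLC17A6, a glutamate transporter (-3.37), and NEFM, a neurofilament (-3.33). The summed neural level of every complex was thus above that of both trunks, and the part of this RNA in the differences below was not tested. With the stage 15 complexes alone as the younger tissue, 5 cartilage and 5 neural genes were called lower, 10 proximal tubule genes and 8 basement membrane genes higher and 6 genes of cell division lower, against 4, 5, 12, 10 and 15 with all 8 libraries.

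DMRT2, which somites need for their muscle part, had 61.0, 56.3, 33.4 and 20.4 CPM in the complexes and 0.431, 2.08, 1.06 and 3.46 CPM in the gonads (difference -4.84 ± 0.60 SE, adjusted p = 0.000573). Of 16 HOX genes tested, which set position along the body axis, 7 were lower and 1 was higher, with a median of -0.95. HOXC6 (-2.64), HOXC8 (-1.99) and HOXB8 (-1.69) fell most, and HOXD8 was the member that rose (0.84). Without the 26 °C stage 12 complex 4 HOX genes were lower, and HOXD8 lost its call without either stage 12 complex or the 31 °C stage 22 gonad (adjusted p up to 0.0732). Of 4 heart genes 3 were lower, TNNC1, the slow troponin C (-3.20), ACTC1 (-3.28) and MYL7, an atrial myosin light chain (-1.95), and 1 was lower without the 26 °C stage 19 gonad.

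**Figure D2:**
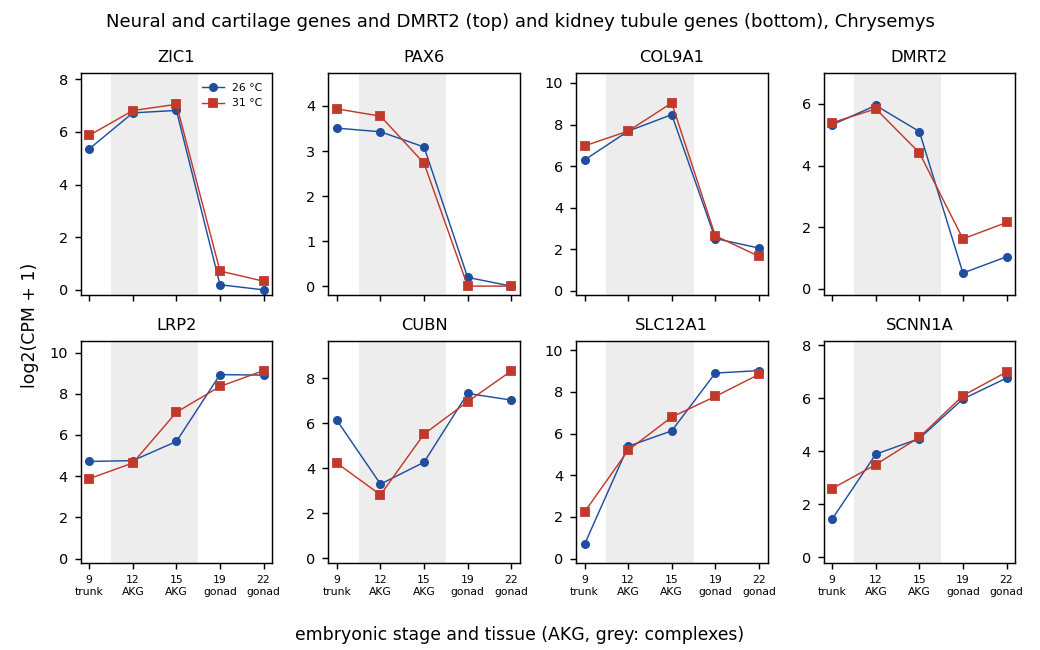
Levels, as log2(CPM + 1), by stage and tissue at 26 °C (blue circles) and 31 °C (red squares), 1 pool per point, with the complexes (AKG) shaded grey and the stage 9 trunks at the left. ZIC1, PAX6, COL9A1 and DMRT2 fell from the complexes to the gonads at both temperatures, and LRP2, CUBN, SLC12A1 and SCNN1A were higher in all 4 gonads than in any complex.

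Kidney tubule genes were higher in the libraries labelled gonad. In the mesonephros the proximal tubule takes up filtered protein through the receptor pair megalin and cubilin, and the distal segments recover salt. LRP2, which encodes megalin, had 26.01, 23.9, 50.4 and 137 CPM in the complexes and 486, 326, 478 and 557 CPM in the gonads (difference 3.03 ± 0.53 SE, adjusted p = 0.00274). CUBN, which encodes cubilin, had 8.80, 6.04, 18.2 and 44.8 CPM and 159, 123, 129 and 318 CPM (difference 3.24 ± 0.56 SE, adjusted p = 0.00274). For both genes the stage 15 complexes lay above the stage 12 complexes, and all gonads lay above all complexes.

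Of 16 proximal tubule genes tested 12 were higher in the gonads and none was lower, against 17.3% of all genes, and the median was 2.07. HAO2, a peroxisomal oxidase, came next (2.58, not called without the 31 °C stage 22 gonad, adjusted p = 0.0692), and CDH16, a cadherin of kidney epithelium, rose by 2.56. SLC4A4, the bicarbonate carrier of the proximal tubule (2.52), HNF4A, a regulator of its differentiation (2.22), and the peptidase ANPEP (2.22) rose as well. The summed level of the list ran from 590.0 to 1421 CPM in the complexes and from 2334 to 5055 CPM in the gonads. The 4 members not called, SLC13A1, SLC6A19 and FBP1 among them, were also above 0, from 0.69 for FBP1 to 1.85 for SLC6A19. SLC6A19, a transporter of neutral amino acids, already had 16.8, 16.9, 105 and 152 CPM in the complexes, and its values overlapped with those of the gonads.

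In the loop, distal tubule and collecting duct 11 of 16 genes were higher, 1 was lower and the median was 1.91. The segments of this list are named after the mammalian kidney. SLC12A1, the salt carrier of the mammalian thick ascending limb, had 40.9, 35.8, 69.0 and 109.9 CPM in the complexes and 478, 219, 519 and 457 CPM in the gonads (difference 2.67 ± 0.42 SE, adjusted p = 0.00168). SCNN1A, a subunit of the epithelial sodium channel, had 13.8, 10.3, 21.3 and 22.0 CPM and 61.6, 67.3, 107 and 126 CPM (difference 2.40 ± 0.34 SE, adjusted p = 0.00106). SLC26A4, an anion exchanger of intercalated cells (2.89), and FOXI1, their regulator (2.79), were higher too, and FOXI1 lost its call without the 31 °C stage 22 gonad (adjusted p = 0.0557). The lower member was IRX3 (-1.45), a patterning gene of nephron segments that is also used in neural tube and ovary.

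Of 13 genes of nephron precursors and ureteric bud 5 were higher and 2 lower, with OSR1, an early kidney regulator (1.66), EMX2 (1.14) and MECOM (1.01) leading the higher and BMP7 (-1.66) and CITED1 (-1.23) the lower members. The lower share was near the 16.5% of all genes, and the higher share stood against 17.3%. CITED1 sat at the limit, with an adjusted p of 0.0501 without the 26 °C stage 12 complex. LHX1, a regulator of nephron patterning, had 2.98, 4.94, 7.69 and 6.69 CPM in the complexes and 9.12, 13.3, 7.42 and 11.5 CPM in the gonads and was not called (adjusted p = 0.0751). SIX2, which keeps nephron progenitors, was not called either, with 24.9, 18.6, 22.5 and 27.5 CPM in the complexes and 20.4, 22.4, 2.58 and 11.9 CPM in the gonads. Of 8 podocyte genes 3 were higher, TCF21 (1.59) and TRPC6 (1.21) among them, and none lower. TCF21 is also an interstitial gene of the gonad. Among the duct genes, LAMA1, a laminin chain, was higher (1.77), and HOXA10, which patterns the duct, was lower (-1.36), so that 3 of 7 genes of the Müllerian and Wolffian ducts rose and 2 fell. HOXA10 lost its call without the 26 °C stage 12 complex (adjusted p = 0.0607).

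Metabolic genes that the kidney tubule uses rose in part. Of 29 genes of amino acid breakdown 11 were higher and 3 lower (median 0.55), and of 24 genes of peroxisomes and fatty acid oxidation 8 were higher and 1 lower (median 0.44). Of all genes 17.3% were higher and 16.5% lower, so both lower shares were below that of all genes. With the stage 15 complexes alone as the younger tissue 3 genes of each list were higher. The lowest higher counts with 1 library left out, given next, were near the share of all genes. The amino acid count was 6 without the 26 °C stage 12 complex, the 26 °C stage 19 gonad or the 31 °C stage 22 gonad and 7 without the 31 °C stage 12 complex, and the peroxisome count 5 without the 26 °C stage 12 complex and 4 without the 31 °C stage 22 gonad. The first of 2 entries named AADAT, a kynurenine aminotransferase, rose by 4.24 and had 55.3, 28.4, 148 and 289.6 CPM in the gonads against 1.90, 1.11, 6.26 and 20.4 CPM in the complexes. The second entry was also called (edgeR, adjusted p = 0.00754). In the 31 °C libraries alone its difference was 1.55, against 3.85 for the first. Neither was called there (edgeR, adjusted p = 0.11 and 0.0745). PIPOX, a peroxisomal oxidase of sarcosine (2.33), and ALDH4A1, an enzyme of proline breakdown (2.01), followed. EHHADH, the bifunctional enzyme of peroxisomal fat oxidation, had 23.4, 20.3, 48.3 and 45.9 CPM in the complexes and 119, 84.3, 125 and 238 CPM in the gonads (adjusted p = 0.00428). ALDH1A1, a retinaldehyde dehydrogenase, had 34.3, 45.1, 143 and 272 CPM in the complexes and 719.8, 372, 956 and 1589 CPM in the gonads (difference 2.91 ± 0.66 SE, adjusted p = 0.00799). The lower members were SDS (-1.64), GCSH (-0.96), GSTZ1 (-0.88) and ETFA (-0.79), of which SDS and GCSH kept their calls whichever library was left out. APOB, the lipoprotein that kidney and liver both secrete, rose by 3.30, and no other of 8 liver genes did, though 3 did without the 26 °C stage 22 gonad.

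Adrenal genes gave a mixed result. The chromaffin cells of the adrenal medulla make catecholamines, and DBH, the enzyme that makes noradrenaline, had 4.74, 6.38, 15.6 and 19.6 CPM in the complexes and 177, 266, 19.1 and 72.8 CPM in the gonads (difference 3.46 ± 0.72 SE, adjusted p = 0.00554). The stage 19 gonads held most of it, and the 26 °C stage 22 gonad lay below the 31 °C stage 15 complex. CHGA, a protein of secretory granules (2.10), and GATA2, a regulator shared with blood (1.85), also had their lowest gonad level at 26 °C stage 22, within the range of the complexes. Of 8 chromaffin genes 4 were higher and none was lower. CHGA lost its call without either stage 19 gonad (adjusted p up to 0.101). Of 9 genes of the adrenal cortex and steroid synthesis 3 were higher. They were NR5A1, which is also a gonad gene, and with small differences SCARB1, a lipoprotein receptor (0.66), and FDXR, an electron donor of steroid synthesis (0.55). SCARB1 and FDXR lost their calls without any of 5 and 7 of the 8 libraries (adjusted p up to 0.114 and 0.136), and FDX1, the partner of FDXR, was not called (0.52, adjusted p = 0.136). The kidney genes PAX2 and PAX8 and the steroid enzymes STAR, CYP11A1 and CYP17A1 were not analysed here.

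Genes of the gonad itself held the largest rises. AMH, the hormone by which Sertoli cells make the Müllerian duct regress, had 0.677, 0.426, 0.715 and 0.456 CPM in the complexes and 239.7, 2.72, 1804 and 1.54 CPM in the gonads (difference 7.68 ± 1.89 SE, adjusted p = 0.0115). The gonads at 26 °C carried nearly all of it, yet both gonads at 31 °C still lay above every complex. AMH lost its call without either 26 °C complex (adjusted p = 0.0650 and 0.0612) and in the 31 °C libraries alone (log2 difference 2.24, adjusted p = 0.103). DMRT1, a regulator of testis development in vertebrates, had 0, 0.0851, 0.179 and 0 CPM in the complexes and 6.39, 1.76, 21.7 and 1.28 CPM in the gonads (difference 6.29 ± 0.85 SE, adjusted p = 0.000905). AMHR2, the receptor of AMH, had 0.542, 0.255, 0.358 and 1.52 CPM in the complexes and 25.8, 22.8, 81.7 and 18.2 CPM in the gonads (difference 5.63 ± 0.68 SE, adjusted p = 0.000527). Unlike its ligand, AMHR2 was high in the gonads of both temperatures, with the highest value at 26 °C stage 22.

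Receptors of steroid hormones were tested as well. ESR1, the alpha estrogen receptor, had 1.76, 2.38, 0.536 and 3.19 CPM in the complexes and 48.5, 19.2, 101 and 14.1 CPM in the gonads (difference 4.16 ± 0.71 SE, adjusted p = 0.00259). ESR2, the beta estrogen receptor, was not called (0.36, adjusted p = 0.574).

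Factors of the early gonadal ridge rose in 8 of 17 cases and fell in 3, with a median of 0.69. Of all genes 17.3% were higher and 16.5% lower, so the share that fell was near that of all genes. NR5A1, the steroidogenic factor that gonad and adrenal both need, had 3.66, 5.02, 2.32 and 0.912 CPM in the complexes and 44.3, 15.2, 86.7 and 5.76 CPM in the gonads (difference 3.09 ± 0.70 SE, adjusted p = 0.00777). GATA4, a regulator of ridge formation, had 0.406, 1.70, 0 and 0.152 CPM and 8.40, 4.01, 23.8 and 1.54 CPM (difference 3.46 ± 1.09 SE, adjusted p = 0.0331). LHX9, which ridge cells need to multiply, had 7.86, 8.34, 5.54 and 4.10 CPM and 20.7, 12.2, 30.9 and 7.81 CPM (difference 1.29 ± 0.37 SE, adjusted p = 0.0226). For all of these the 26 °C stage 22 gonad was the highest library and the 31 °C stage 22 gonad the lowest gonad, and for GATA4 and LHX9 that last library fell within the range of the complexes. TBX2 (1.69) and TCF21 (1.59), both of the mesenchyme, and EMX2, which the ridge epithelium needs (1.14), were higher in every gonad. Among the 3 lower members were SIX4 (-0.77) and the Polycomb gene CBX2 (-0.81). The calls of GATA4 and LHX9 were lost without any of 4 and 5 of the 8 libraries (adjusted p up to 0.114 and 0.0747), that of SIX4 without any of 7 (up to 0.161) and that of CBX2 without the 26 °C stage 12 complex (0.0906), which left 5 ridge factors higher.

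Of 17 testis and Sertoli cell genes 7 were higher and 2 lower (median 0.30), and of 13 ovary and granulosa cell genes 2 were higher and 5 lower (median -0.72). Of all genes 17.3% were higher and 16.5% lower. The higher share of the ovary list was near that of all genes, and the lower share of the testis list was below it. CLDN11, the tight junction claudin of Sertoli cells, had 8.67, 9.45, 6.26 and 9.88 CPM in the complexes and 230.2, 46.0, 633 and 31.8 CPM in the gonads (difference 3.90 ± 0.79 SE, adjusted p = 0.00517). DHH, the Hedgehog ligand that Sertoli cells send to Leydig cells, rose by 2.69 with its highest value of 16.2 CPM at 31 °C stage 19. SOX9, the switch gene of Sertoli cells, had 104, 138, 104 and 147 CPM in the complexes and 56.5, 48.9, 144 and 34.7 CPM in the gonads and was not called (-0.93, adjusted p = 0.0919). In the 31 °C libraries alone SOX9 was called lower in the gonads (edgeR, log2 difference -1.79, adjusted p = 0.0184). The 26 °C stage 22 gonad lay within the range of the complexes and the other gonads below it, and SOX9 is also a cartilage gene. ERBB4, a neuregulin receptor (1.71), and PTGDR, a prostaglandin D2 receptor (1.21), were the other higher members. FGF9, a growth factor of the testis, was lower (-1.24), as was 1 of 2 entries of DMRT3, but both calls were lost without any of 7 and 6 of the 8 libraries (adjusted p up to 0.190 and 0.0974), and so was that of PTGDR without any of 7 (up to 0.119).

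On the ovarian side, FOXL2, the regulator of granulosa cells, had 0.271, 1.45, 0.358 and 0.456 CPM in the complexes and 0.718, 3.21, 0.455 and 6.40 CPM in the gonads (difference 1.74 ± 0.55 SE, adjusted p = 0.0331). All of its values were low, and only the 31 °C gonads lay above the complexes. FOXL2 lost its call without any of 5 of the 8 libraries (adjusted p up to 0.103). CYP19A1, the aromatase that makes estrogen, was too rare to be tested and had 0.0718, 0.481, 0.152 and 7.30 CPM in the gonads, with the 31 °C stage 22 library alone above 0.5 CPM. RSPO1, a Wnt agonist of the ovary, was not called, with 4.61, 3.32, 6.44 and 8.21 CPM in the complexes and 2.73, 5.13, 2.58 and 3.46 CPM in the gonads. The 5 lower members were IRX3, IRX5 (-1.23), LEF1, a Wnt effector (-1.05), FGFR2 (-0.80) and CDKN1B (-0.79), all of which other embryonic organs use as well. CDKN1B lost its call without any of 5 of the 8 libraries (adjusted p up to 0.0791). ESR1 was the other higher member.

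Of 9 genes of the interstitium and Leydig cell lineage, the cells between the cords, 5 were higher and 1, PTCH1, was lower (median 1.01), with the same counts or 1 more whichever library was left out. MAF, a transcription factor of interstitial cells and macrophages, had 10.7, 12.6, 15.4 and 21.4 CPM in the complexes and 49.2, 73.1, 38.9 and 46.1 CPM in the gonads (difference 1.76 ± 0.26 SE, adjusted p = 0.00136). NR2F2, a nuclear receptor of mesenchymal progenitors, had 148, 139, 119 and 136 CPM in the complexes and 341, 296, 214 and 207 CPM in the gonads (difference 0.94 ± 0.22 SE, adjusted p = 0.00906). NR2F1, its relative (1.32), and TCF21 were also higher, and every gonad exceeded every complex for each of the 5. Most called genes shared this, as 3488 of all 4111 calls were without overlap.

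**Figure D3:**
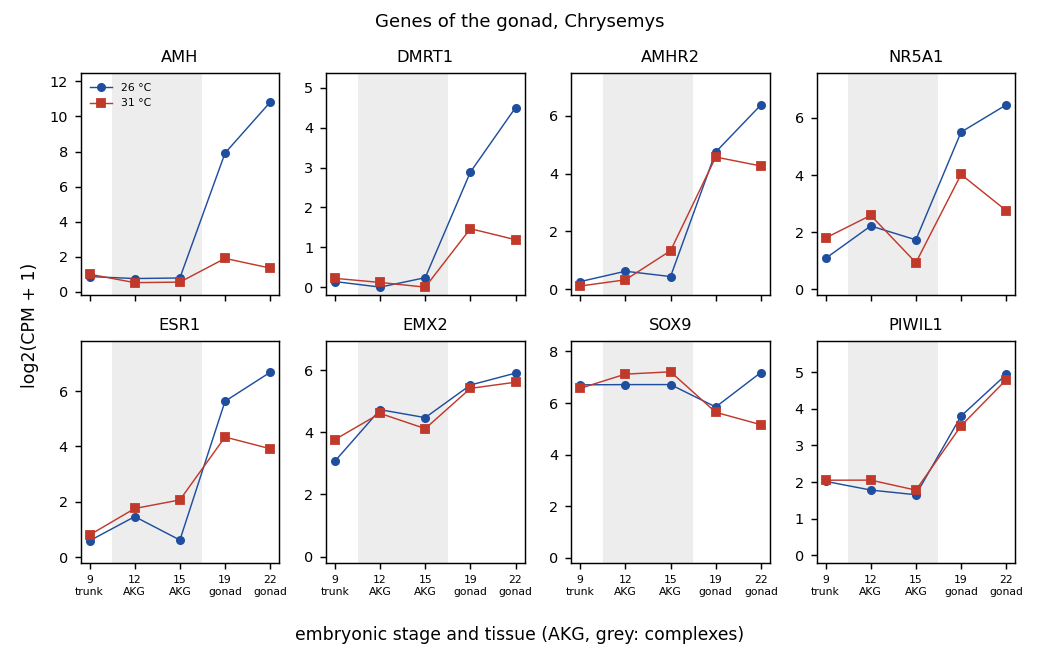
Levels, as log2(CPM + 1), by stage and tissue at 26 °C (blue circles) and 31 °C (red squares), 1 pool per point, with the complexes (AKG) shaded grey and the stage 9 trunks at the left. AMH and DMRT1 rose most at 26 °C, AMHR2, NR5A1, ESR1, EMX2 and PIWIL1 were higher in every gonad than in any complex, and the values of SOX9 overlapped.

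Of 43 tested genes that the study names as a sex-determination network 13 were higher in the gonads, 8 were lower and 22 were not called, with a median of 0.33. Of all genes 17.3% were higher and 16.5% lower, and the lower share of the network was near the latter. The study picked these genes, some of them on these libraries, so their directions are not independent evidence. Without the 26 °C stage 12 complex 5 were lower. Besides the genes above, EP300, a histone acetyltransferase (1.45), was among the higher members, and the Hedgehog receptor PTCH1 (-1.18) was among the lower ones. CIRBP, an RNA-binding protein that responds to cold, had 2056, 2520.3, 2178 and 2603 CPM in the complexes and 819, 1195, 847 and 1458 CPM in the gonads (difference -1.17 ± 0.22 SE, adjusted p = 0.00350). Within each stage its level was higher at 31 °C than at 26 °C, and all gonads lay below all complexes. Of 15 genes of the heat and cold response, CIRBP included, 6 were lower and 1 higher. HSPB1, a small heat shock protein (-1.47), TRPA1, an irritant and heat channel (-1.37), and HSPH1 (-0.81) were among the lower members. The count of lower heat and cold genes fell to 1 without the 26 °C stage 12 complex and to 2 or 3 without any other library, and HSPB1, TRPA1 and HSPH1 lost their calls without any of 6, 6 and 5 of the 8 libraries (adjusted p up to 0.166, 0.136 and 0.107). CIRBP kept its call whichever library was left out.

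Germ cell genes split. PIWIL1, an Argonaute protein that silences transposons in germ cells, had 2.44, 3.15, 2.15 and 2.43 CPM in the complexes and 12.9, 10.6, 29.5 and 26.6 CPM in the gonads (difference 2.94 ± 0.40 SE, adjusted p = 0.000891). TDRD6, a Tudor protein of the germ granule, had 2.71, 3.49, 1.25 and 3.50 CPM and 13.9, 12.5, 25.9 and 15.9 CPM (difference 2.62 ± 0.40 SE, adjusted p = 0.00148). TEX15, a partner of that pathway in mice (2.29), CPEB1, a translation regulator (1.80), and MAEL (1.15) were higher as well. For PIWIL1 and TDRD6 the stage 22 gonads held more than the stage 19 gonad of the same temperature. DDX4, the helicase that defines germ cells, had 21.1, 22.4, 17.5 and 15.4 CPM in the complexes and 22.0, 17.9, 38.9 and 28.3 CPM in the gonads and was not called (0.45, adjusted p = 0.219). The trunks already held 40.7 and 33.0 CPM of DDX4. Of 14 germ cell genes tested 5 were higher and 4 lower (median 0.62), against 17.3% and 16.5% of all genes. The lower members were TFAP2C (-3.26), ELAVL2 (-2.25), KPNA2 (-0.74) and MKRN1 (-0.51), which somatic cells also express. KPNA2 and MKRN1 lost their calls without any of 3 and 6 of the 8 libraries (adjusted p up to 0.106 and 0.185). Of 6 meiosis genes only SMC1B, the meiotic cohesin subunit, was higher (2.16), with 4.88, 4.49, 12.0 and 9.86 CPM in the gonads, and CCNB3, a cyclin of meiotic cells, was lower (-0.82, lost without any of 6 libraries, adjusted p up to 0.117). Both shares of the meiosis list were near those of all genes.

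The matrix and the support tissue changed together. All 10 basement membrane genes tested were higher in the gonads, whichever library was left out and against 17.3% of all genes, with a median of 1.70. COL4A2, a chain of type IV collagen, had 53.5, 84.3, 74.2 and 77.7 CPM in the complexes and 325, 326, 221 and 219 CPM in the gonads (difference 1.90 ± 0.23 SE, adjusted p = 0.000518). FRAS1, which links epithelium to mesenchyme (1.87), and LAMC1, a laminin chain (1.83), rose to a like extent. Of 23 genes of fibrillar collagen and matrix 13 were higher and 1, the proteoglycan LUM, was lower (-1.06, lost without any of 6 libraries, adjusted p up to 0.114). COL6A3 (3.14), COL6A1 (3.11) and COL3A1 (3.05) rose most, and FBN1, the fibrillin of elastic microfibrils, had 14.2, 17.7, 15.7 and 33.4 CPM in the complexes and 144, 216, 114 and 152 CPM in the gonads (difference 2.95 ± 0.26 SE, adjusted p = 0.000111). The summed matrix level was 7459 to 23599 CPM in the gonads and 3348 to 8644 CPM in the complexes, and the 31 °C stage 19 gonad was the highest for COL1A1 with 8494 CPM.

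Genes of smooth muscle, blood and vessels were higher in the gonads in 6 of 10, 5 of 7 and 5 of 9 cases and lower in none, against 17.3% of all genes called higher. The vessel count was 3 without either 26 °C complex, the 31 °C stage 15 complex or the 26 °C stage 19 gonad. It was 1 with the stage 15 complexes alone as the younger tissue, 1 at 26 °C alone and 2 at 31 °C alone, shares near that of all genes. MYH11, the smooth muscle myosin, had 7.45, 12.3, 5.54 and 6.69 CPM in the complexes and 49.2, 149, 73.3 and 183 CPM in the gonads (difference 3.67 ± 0.31 SE, adjusted p = 8.1e-05). ANK1, the ankyrin of the red cell membrane (2.44), and CA13, a carbonic anhydrase (2.39), led the red cell list, and PECAM1 (1.65) and PLVAP (1.50), both of endothelium, led the vessel list. Red cell genes summed to 222.4 to 357.5 CPM in the complexes and 421.4 to 1169 CPM in the gonads, with the 31 °C gonads above the 26 °C gonads for SLC4A1, the band 3 protein that intercalated cells of the kidney also make, at 85.2, 227, 63.0 and 171 CPM. Macrophage genes were higher in 8 of 10 cases, against 17.3% of all genes. CD68 (3.10), the mannose receptor MRC1 (2.90) and the growth factor receptor CSF1R (2.57) led them, and the summed level was 70.1 to 103.0 CPM in the complexes and 226.6 to 268.1 CPM in the gonads. C7, a complement component (2.48), and IRF7, an interferon regulator (4.30), were among the other immune genes that rose.

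The remaining large rises belonged to no list. LAMP3, a lysosomal membrane protein of dendritic cells and lung epithelium, had 0.861, 24.2, 28.5 and 4.48 CPM in the gonads and 0.135, 0.340, 0 and 0.608 CPM in the complexes (difference 5.75 ± 1.13 SE, adjusted p = 0.00451). IGF1, the insulin-like growth factor, had no count in 3 of the 4 complexes and had 4.38, 1.603, 11.5 and 6.53 CPM in the gonads (difference 4.61 ± 1.19 SE, adjusted p = 0.0141). STC1, the calcium and phosphate hormone stanniocalcin, rose by 3.79, and ADAMTSL5, a matrix protein that binds fibrillin, by 3.95. In the epithelial list 9 of 15 tight junction and polarity genes were higher and none lower. CLDN19 (1.86), a claudin of the mammalian thick ascending limb, followed CLDN11 there. Without either 26 °C complex 5 of these genes were higher. KRT8, a keratin of simple epithelia, was the 1 of 3 mesothelium genes that rose (0.94, adjusted p = 0.0514 without the 26 °C stage 12 complex), and of the 2 tested genes of lung and gut endoderm SHH fell.

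Genes of cell division moved the other way. Of 27 genes of cell division 15 were lower in the gonads and none higher (median -0.69), against 16.5% of all genes called lower. PCNA, the sliding clamp of DNA replication, had 813, 633, 768 and 536 CPM in the complexes and 276, 239, 300.0 and 358 CPM in the gonads (difference -1.24 ± 0.22 SE, adjusted p = 0.00303). TYMS, which makes thymidylate (-1.23), and the mitotic kinase AURKA (-1.23) fell to a like extent, and TOP2A, the topoisomerase of dividing cells, was not called (0.27). The count of lower genes was 9 without the 26 °C stage 12 complex, 12 in the 26 °C libraries alone and 0 in the 31 °C libraries alone by edgeR. At 31 °C 10 of these genes had an unadjusted p under 0.05 in the lower direction, and DESeq2, run on each temperature as an alternative chosen after seeing the data, called 0 lower. Of 39 ribosomal protein genes 13 were lower and none higher (median -0.75), and of 27 genes of the respiratory chain 13 were lower and none higher (median -0.69). Ribosomal protein genes summed to 87934 to 167250 CPM in the complexes and 52045 to 106590 CPM in the gonads, so the ranges overlapped. Neither count was stable. Leaving out the 31 °C stage 12 complex gave 26 ribosomal and 16 respiratory chain genes, and leaving out the 31 °C stage 22 gonad gave 24 and 18, while without any other library at most 3 and 2 genes were called. In the 26 °C libraries alone 34 ribosomal and 22 respiratory chain genes were lower, and in the 31 °C libraries alone 0 of either, with 0 at an unadjusted p under 0.05 and 0 by DESeq2. Among 24 chromatin regulators 5 were lower and 2 higher, against 16.5% and 17.3% of all genes, so the share of lower genes was near that of all genes. The lower ones were the Polycomb genes EED (-1.48), EZH2 (-1.06), CBX2 and SUZ12 (-0.75) and the deacetylase HDAC2 (-0.78), and the higher ones were EP300 and its relative CREBBP (0.76). Without the 26 °C stage 12 complex 2 chromatin regulators were lower, with HDAC2 (adjusted p = 0.0653) and SUZ12 (0.0562) no longer called, and CREBBP lost its call without any of 6 of the 8 libraries (up to 0.0972).

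In the Wnt pathway 7 of 23 genes were lower and none higher (median -0.30), against 16.5% and 17.3% of all genes. The receptor FZD10 (-3.49), the ligand WNT7A (-3.19) and the antagonist SFRP4 (-3.17) fell most. In the Hedgehog pathway SHH, the ligand of notochord and floor plate, had 46.1, 49.97, 41.3 and 36.3 CPM in the complexes and 6.39, 10.7, 13.0 and 15.1 CPM in the gonads (difference -1.98 ± 0.28 SE, adjusted p = 0.00113), and its receptor and target PTCH1 fell too, while DHH rose. Among 26 TGF-beta and BMP genes 6 were lower, a share near the 16.5% of all genes, and 2, AMH and AMHR2, were higher. BMP7, the antagonist GREM1 (-1.69, lost without any of 6 libraries, adjusted p up to 0.154) and the ligand GDF10 (-1.65) led the lower members. In the Notch pathway 3 of 9 genes were higher, the ligands DLL4 (1.31) and JAG1 (0.74) and the glycosyltransferase MFNG (1.27), and 2 were lower, the ligand DLL1 (-0.77) and the target HEY1 (-0.62). The lower share was near the 16.5% of all genes, and the higher share stood against 17.3%. MFNG, DLL1 and HEY1 lost their calls without any of 6, 5 and 5 of the 8 libraries (adjusted p up to 0.106, 0.136 and 0.104). Of 11 genes of the retinoic acid pathway 2 were higher, ALDH1A1 and the retinol receptor STRA6 (1.35), and 2 lower, TTR, a carrier of retinol and thyroid hormone (-3.18), and LRAT, which stores retinol (-2.15). Both shares of this pathway were near those of all genes. TTR is also a liver gene, and its trunk level was 1472 and 901 CPM. TTR and LRAT lost their calls without any of 4 and 6 of the 8 libraries (adjusted p up to 0.107 and 0.170).

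**Figure D4:**
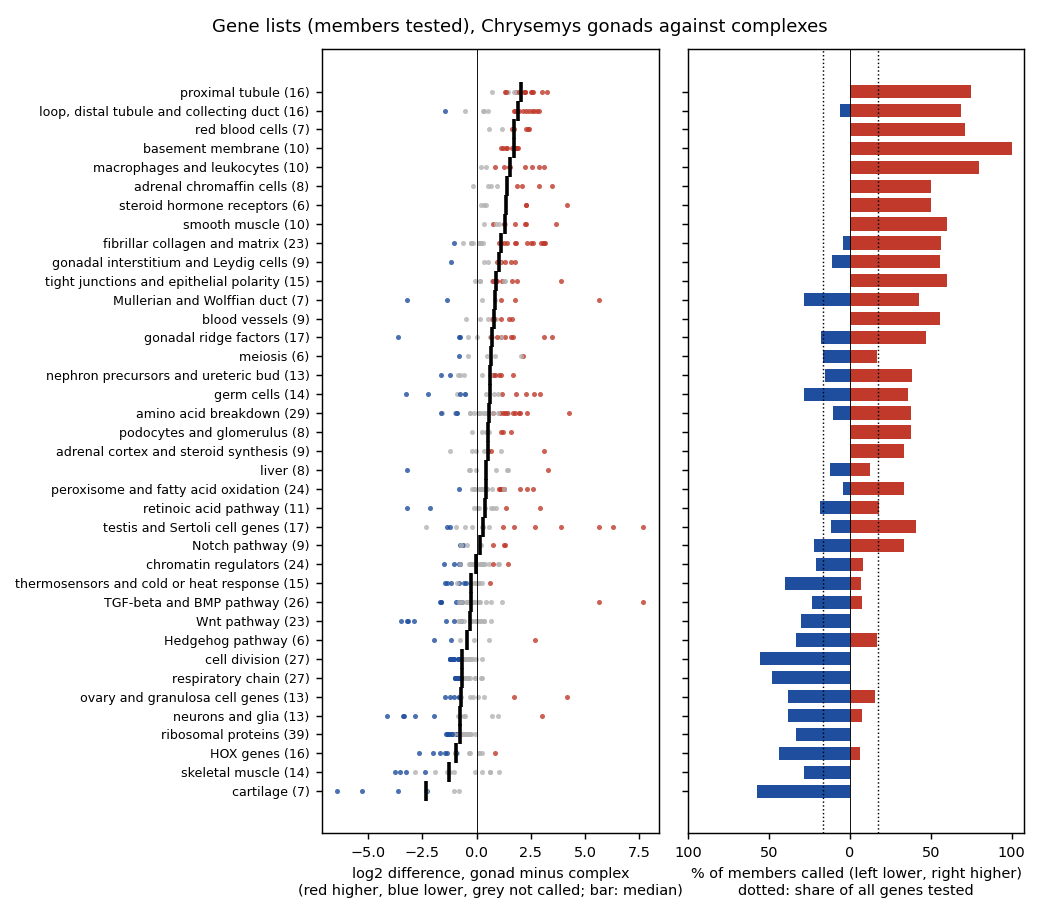
Gene lists with at least 6 members tested, ordered by median. The left panel plots each member's log2 difference, gonad minus complex (red called higher, blue called lower, grey not called, black bar the median), and the right panel the percent of tested members called lower (left) or higher (right), with dotted lines at the 16.5% and 17.3% of all genes. Kidney tubule, red blood cell, basement membrane and macrophage lists stand at the top, and cartilage, skeletal muscle and HOX lists at the bottom.

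The design also allows the question of whether the gonad minus complex difference was itself different at the male- and the female-producing temperature. It was called different for 4 of 12140 genes (0.0329%), while 1325 genes had an unadjusted p under 0.05 and DESeq2 called 133. All 4 called genes encode muscle proteins. ACTC1, cardiac actin, had 851, 979.9, 1296 and 1527 CPM in the complexes and 22.5, 626, 27.0 and 551 CPM in the gonads, so the 26 °C gonads lay far below all other libraries. Its tissue difference was -5.47 at 26 °C and -1.12 at 31 °C (31 °C minus 26 °C 4.35 ± 0.48 SE, adjusted p = 0.0373). ACTA1, skeletal actin, had 8.11, 400.5, 17.1 and 798 CPM in the gonads (31 °C minus 26 °C 6.47 ± 0.73 SE, adjusted p = 0.0373), and TNNC2, the fast skeletal troponin C, had 1.87, 229, 5.76 and 256 CPM (31 °C minus 26 °C 6.06 ± 0.75 SE, adjusted p = 0.0455). ACTG2, the actin of visceral smooth muscle, had 64.5, 88.9, 95.0 and 99.7 CPM in the complexes and 70.6, 688, 62.4 and 775 CPM in the gonads (31 °C minus 26 °C 3.22 ± 0.39 SE, adjusted p = 0.0455). In each of these genes both 31 °C gonads stood far above both 26 °C gonads. Skeletal muscle genes summed to 158.9 CPM in the lowest gonad and to 2011.8 CPM in the highest, against 876.0 to 1715 CPM in the complexes, so the range of the gonads enclosed that of the complexes. Over the 8 libraries 4 of 14 skeletal muscle genes were lower in the gonads, led by TNNI1, the slow troponin I (-3.74), and the myogenic regulators MYF6 (-3.51) and MYOG (-3.23), and 8 were lower without the 31 °C stage 12 complex. In the 26 °C libraries alone 11 of these genes were lower, and in the 31 °C libraries alone 2 were lower and 2 higher. Over all genes the libraries of 26 °C alone gave 3719 calls and those of 31 °C alone 864. At 26 °C and at 31 °C alone, 12 and 6 proximal tubule genes, 10 and 2 basement membrane genes and 5 and 6 macrophage genes were higher, and 4 and 7 cartilage genes were lower. DESeq2 called 12 and 10 proximal tubule and 10 and 8 basement membrane genes. Of the chromaffin genes edgeR called 0 higher at 26 °C, where 3 had an unadjusted p under 0.05 and DESeq2 called 2, and 4 higher at 31 °C. Apart from the 4 muscle genes, edgeR called no gene in these lists different between the temperatures. DESeq2 also called the list members AMH and CLDN11, but its full set of 133 calls was not matched to the lists.

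**Figure D5:**
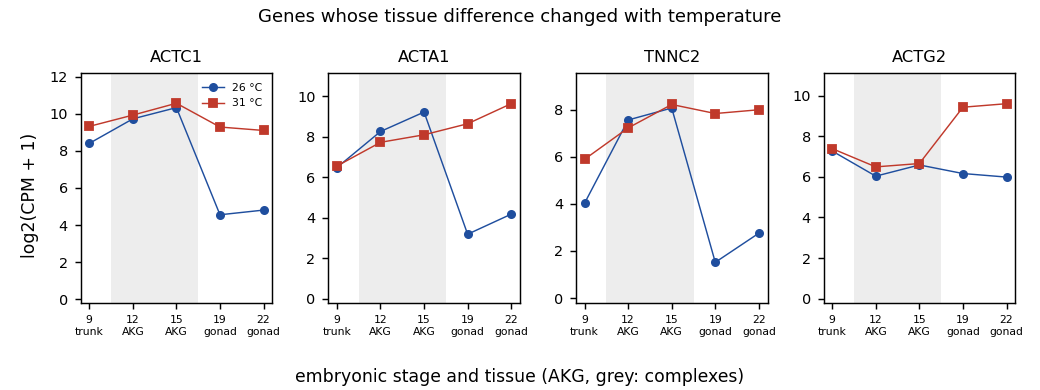
Levels, as log2(CPM + 1), of the 4 genes whose tissue difference was called different between the temperatures, by stage and tissue at 26 °C (blue circles) and 31 °C (red squares), 1 pool per point, with the complexes (AKG) shaded grey and the stage 9 trunks at the left. The 2 gonads at 31 °C lie above the 2 gonads at 26 °C in each panel, and for ACTC1, ACTA1 and TNNC2 the 26 °C gonads are the lowest libraries shown.

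Other genes did not pass the correction in edgeR. DESeq2 called all 6 of the genes named next. FOXF2, a regulator of gut and limb mesenchyme, came next among those with a more positive difference at 31 °C (31 °C minus 26 °C 6.14 ± 0.84 SE, adjusted p = 0.0820). It had 15.6, 18.6, 14.3 and 12.3 CPM in the complexes and 0.144, 5.61, 0.152 and 16.5 CPM in the gonads. Its gonads thus lay far below the complexes at 26 °C only. The genes with the smallest p in the other direction were CLDN11 (31 °C minus 26 °C -3.84 ± 0.65 SE, adjusted p = 0.197), AMH (31 °C minus 26 °C -8.26 ± 1.47 SE, adjusted p = 0.197), TENT5C (31 °C minus 26 °C -4.17 ± 0.75 SE, adjusted p = 0.197), DOP1B (31 °C minus 26 °C -2.66 ± 0.51 SE, adjusted p = 0.197) and PCSK6 (31 °C minus 26 °C -3.08 ± 0.59 SE, adjusted p = 0.197). AMH therefore had a tissue difference of 10.49 at 26 °C and 2.23 at 31 °C, and their difference passed the threshold in DESeq2 but not in edgeR. This test rests on 2 libraries per tissue and temperature, and no gene was called when any complex or either 31 °C gonad was left out, while 53 were called without the 26 °C stage 19 gonad and 9 without the 26 °C stage 22 gonad.

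The same tissues were taken in the softshell turtle Apalone spinifera (Apalone), whose sex is set by chromosomes, with pools of 5 unsexed embryos whose reads were counted on Chrysemys genes. Over 11763 genes tested in both species the tissue difference was called different for 620 genes (5.27%), 320 with a more positive difference in Apalone and 300 with a more negative one. In that fit 3656 genes were called in Chrysemys and 311 in Apalone, and 9 genes were called in opposite directions. SEMA3F, a guidance protein, was 1.14 in Chrysemys and -1.04 in Apalone (Apalone minus Chrysemys -2.18 ± 0.25 SE, adjusted p = 0.00451). NRN1, a neurite protein, was -2.90 in Chrysemys and 1.58 in Apalone (Apalone minus Chrysemys 4.48 ± 0.57 SE, adjusted p = 0.00451). DDX4 was 0.47 in Chrysemys and 4.22 in Apalone (Apalone minus Chrysemys 3.76 ± 0.52 SE, adjusted p = 0.00458). HSF2BP, a meiotic recombination protein, TIGAR, an enzyme of sugar metabolism, and DKK1, a Wnt antagonist, also had more positive differences in Apalone. In the other direction stood HUWE1, a ubiquitin ligase, NDRG2, FBN1 and DMTN, a protein of the red cell membrane. DMTN was higher in the gonads of Chrysemys (2.38) and not in those of Apalone (-0.38).

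Genes of the groups above differed between the species only in part. The difference of the distal tubule gene SCNN1A (Apalone minus Chrysemys -2.40 ± 0.54 SE, adjusted p = 0.0278) was more negative in Apalone, where it had a tissue difference of 0.01. LRP2 had a tissue difference of 0.15 and CUBN of 0.74 in Apalone, and for neither LRP2 (Apalone minus Chrysemys -2.89 ± 1.08 SE, adjusted p = 0.123) nor CUBN (Apalone minus Chrysemys -2.51 ± 1.18 SE, adjusted p = 0.210) was the species difference called. PIWIL1 rose more in Apalone (Apalone minus Chrysemys 2.59 ± 0.71 SE, adjusted p = 0.0483). The tissue difference of ZIC1 was -8.87 in Chrysemys and -9.74 in Apalone, that of AMH 7.68 and 7.31, and that of DMRT1 6.27 and 5.98, and none of these was called different between the species (adjusted p = 0.853, 0.967 and 0.900).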

How the data were processed

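Total RNA was extracted with RNeasy kits and sequenced on a HiSeq 2000 as 100-base read pairs. Per the study's methods, reads were aligned with GSNAP to the annotated genes of the Chrysemys genome (build 3.0.1) and counted with HTSeq without strand, so overlapping and antisense genes cannot be told apart. The submitters' notes also name Trimmomatic 0.27. The deposited values are raw counts per gene made by the authors, and 100% of them are even numbers, the pattern that counting both reads of a pair would leave. Counts were tested with edgeR 4.0.16 in R 4.3.3 (TMM factors, filterByExpr by tissue, two-sided quasi-likelihood tests with temperature as a block). DESeq2 1.42.0, other scalings and filters, stage pairs, single temperatures and leaving out each library were tried as alternatives, and the code was tested on simulated data. Symbols came from the file or were matched by accession to a RefSeq table of another assembly, used for names only. Where RefSeq gave none, the symbol was taken from gene descriptions in the study's supplement. Of 1604 entries named by both sources 1531 had the same symbol, and the RefSeq symbol was used.

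The members and the 42 gene lists were chosen with earlier results of these data known. Named genes were the 12 with the largest difference in each direction among called genes with a symbol, at least 5 CPM in the higher tissue and no overlap, up to 3 called members of a list in each direction, the genes that define a tissue, the 10 smallest p in each direction and the 5 leading interaction genes in each direction. Other list members were named after their values were seen. The floor for a library at 0 is 3 counts. Fold limits from this floor cover counting error only and take each count as a separate event, although all counts are even. Genes without a symbol were counted but not named. Some list members that enter the counts are not reported here by name.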

Additional observations from a re-analysis of the deposited data

Results flagged for a closer look

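In 15 of 378 groups of 4 libraries 1 library stood far from the other 3, by the ratio of its gap to the whole range of log2(CPM + 1), above Dixon's limit for 4 values. Chance flags about 1 in 20 such groups. Among the gonads, the 31 °C stage 22 library was low for CREBBP (70.7 CPM, others 102 to 106, ratio 0.909) and LEF1 (17.0 CPM, others 25.96 to 27.1, ratio 0.905). The 31 °C stage 19 gonad was low for SLC12A1 (219 CPM, others 457 to 519, ratio 0.853) and TIGAR (20.7 CPM, others 34.3 to 37.4, ratio 0.853), and the 26 °C stage 22 gonad was low for TCF21 (70.8 CPM, others 131 to 141, ratio 0.898). Among the complexes, the 31 °C stage 15 library was high for HOXC8 (52.3 CPM, others 32.7 to 33.0, ratio 0.981) and low for FAM181A (11.9 CPM, others 15.4 to 16.3, ratio 0.833). The 26 °C stage 15 complex was low for ESR2 (1.43 CPM, others 3.40 to 3.66, ratio 0.914) and high for GJA1 (505 CPM, others 426 to 435, ratio 0.878), and the 26 °C stage 12 complex was high for MYF6 (17.1 CPM, others 11.4 to 12.2, ratio 0.842). In the remaining groups a single library had a few counts and the other 3 had none (ratio 1), which were ALKAL1, FAM181A, GLRA2 and PAX6 in the gonads and IGF1 in the complexes.

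By edgeR, the tissue difference differed between the temperatures, in log2 units of 31 °C minus 26 °C, for ACTC1 (4.35), ACTA1 (6.47), ACTG2 (3.22) and TNNC2 (6.06).

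The tissue difference differed between the species for the following genes described above, in log2 units of Apalone minus Chrysemys. It was more positive in Apalone for NRN1 (4.48), HSF2BP (6.41), TIGAR (2.17), DKK1 (4.36), DDX4 (3.76), MAEL (1.90), GLRA2 (6.60), TRPC6 (2.70), EED (1.37), PCNA (1.13), FZD10 (3.61) and PIWIL1 (2.59). It was more negative in Apalone for SEMA3F (-2.18), HUWE1 (-2.07), NDRG2 (-1.67), FBN1 (-2.47), DMTN (-2.75), MRC1 (-2.75), EP300 (-1.49), LAMA1 (-1.63), SCNN1A (-2.40), ANK1 (-2.43), LAMC1 (-1.20), SLC26A4 (-3.99), ADAMTSL5 (-2.86), MECOM (-1.59) and ALDH4A1 (-2.01).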

How the results depend on the processing

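The 4111 calls became 4758 with DESeq2, 4127 with upper quartile scaling, 3648 with library totals, 4096 with relative log expression factors, 4133 with no filter beyond 1 count, 4030 with counts divided by 2, 4171 with no temperature term, 4335 with the trunks in the fit and 3719 at 26 °C alone. They numbered 1761 for stage 15 against stage 19, 1376 for stage 12 against stage 22 and 864 at 31 °C alone, and the 254 list members called were then 147, 152 and 100. Of the alternatives chosen after seeing the data, stage 15 complexes against all gonads gave 1939 genes and 159 list members, and all complexes against stage 19 gonads gave 3297. Leaving out 1 library gave 2464 to 4150 genes and 167 to 241 list members, lowest without the 26 °C stage 12 complex. Called genes changed direction only for stage 12 against stage 22, where 2 did. Of the 189 named entries 153 were called in the full comparison. None of these 153 changed direction, and 77 of them lost their call at 31 °C alone. The temperature test gave 133 genes with DESeq2 and 0 to 53 with 1 library left out, and the species test 1426 with DESeq2. The cause of these changes was not tested. Only the chromatin list had a median that changed sign with scaling (-0.01 to 0.11). No paired analysis was possible because the labels carry no replicate numbers. Each tissue had 4 pools and the main test 5 residual degrees of freedom, which limited the precision.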
